A study of Mus musculus with 6 samples.

Results

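Checkpoint ligands are surface or secreted proteins through which a cell restrains, and in some cases stimulates, the T cells and natural killer cells that meet it. The array results below cover 9 mouse genes of this kind: Cd274 (PD-L1), Pdcd1lg2 (PD-L2), Cd80, Cd86, Cd276 (B7-H3), Vtcn1 (B7-H4), Pvr (CD155), Nt5e (CD73) and Lgals9 (galectin-9). Every probe set, a group of short probes read together as 1 transcript signal, was taken if the platform annotation named one of these genes and no other gene. That gave 21 probe sets of the 45101 on the array, for the 9 genes among 18193 with such a probe set.

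The tested samples were 3 cultures of 393P cells made to express Zeb1 stably and constitutively from a vector, and the comparison samples were 3 cultures of the same line carrying the pcDNA control vector. The line is a mouse lung cancer line. Both kinds of cell had been transfected with a lipid reagent and were grown in RPMI with fetal bovine serum, so transfection is common to both. The labels name neither clones nor separate transfections, so the p-values measure the spread between triplicate cultures of unknown independence. Zeb1 is a zinc-finger repressor known for switching off epithelial genes.

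PD-L1 and PD-L2 bind PD-1 on activated T cells and damp their response, and PD-L1 is known to be induced by interferon gamma through the kinases Jak1 and Jak2 and the factor Irf1. In lung cancer, Zeb1 has been linked to PD-L1 through the microRNA-200 family, which Zeb1 represses and which can target the PD-L1 message. Cd80 and Cd86 are ligands of the T cell receptors CD28 and CTLA-4 and are typical of antigen-presenting cells. Pvr binds TIGIT, CD96 and CD226, Nt5e makes immunosuppressive adenosine from AMP outside the cell, and galectin-9 is a sugar-binding ligand of TIM-3.

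In Zeb1 cells the Cd274 signal was higher, the Pvr and Nt5e signals were lower, and those of Pdcd1lg2, Cd276 and Lgals9 did not pass the test. Signals are log2 MAS5 values. A signal under 4.45, the 25th percentile of all values on the 6 arrays, was raised to that floor, and the test took in probe sets whose signal was at or over the array median in 3 or more of the 6 arrays. Of the 21 probe sets 11 were tested, from 6 genes, and 1 was called higher and 6 lower in Zeb1 cells at an adjusted p of 0.05 (limma, Benjamini-Hochberg over 20594 tested probe sets). Over all tested probe sets 46.1% were called, 24.5% higher and 21.6% lower, so a call by itself was common in this comparison. The 6 lower calls came from 2 genes, 5 of them from Pvr. The median log2 change was -0.64 over the 11 probe sets and 0.02 over all tested ones. Of the 11, 6 were of Pvr and the first median is the value of one of these, so it does not describe the ligands as a set.

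Each array has a trimmed mean of 500 linear units, and 24.0% to 26.4% of its probe sets lay at the floor. Across tested probe sets, which are not independent replicates, pairs of arrays within a group had r = 0.979 to 0.984 and pairs across groups 0.867 to 0.873. The label was checked on Zeb1 itself: its probe set 1418926_at gave 9.71, 9.59 and 9.78 on the Zeb1 arrays, against 3.36, 3.84 and 4.50 on the control arrays. Another, 1443005_at, rose by 1.17 (SE 0.30, limma adjusted p = 0.0089), and the remaining 2 of the 4 were not tested. Among carcinoma epithelial markers the keratin Krt18 averaged 14.72 in Zeb1 cells and 14.69 in control cells, while 7 of 11 tested markers of that list fell, with changes of -0.16 for Krt8 and -8.31 for Krt7. The lung factor Nkx2-1 had no tested probe set.

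**Figure D1:**
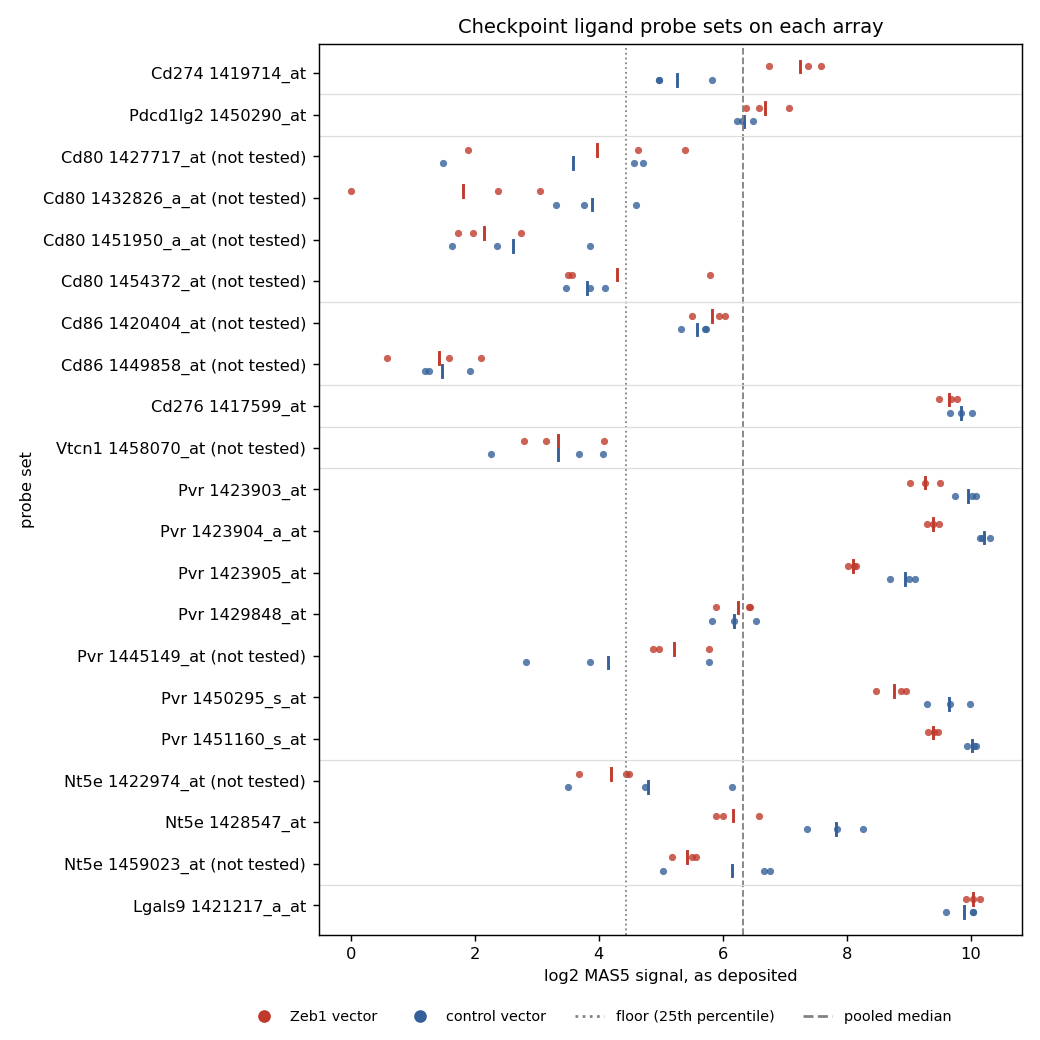
Log2 MAS5 signal (horizontal axis) of the 21 checkpoint ligand probe sets on each array, with 3 Zeb1 vector arrays (red, upper row of each pair) and 3 control vector arrays (blue, lower row); vertical ticks are group means of the deposited values, the dotted line is the floor and the dashed line the pooled median. The Cd274 points of the Zeb1 arrays lie right of the dashed line and those of the control arrays left of it, and the points of Cd80, Cd86 and Vtcn1 lie left of it in both groups.

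The stretch of 250 bases before the annotated start of each gene was read from RefSeq's promoter sequences (build GRCm38.p6), which held 7 of the 9 genes and were searched on both strands for 3 motifs. No match of one motif overlapped a match of another in these genes. CACCTG, an E-box of the kind Zeb1 binds, was searched together with its reverse complement and stood in 17.2% of 32851 promoters of this length. The core of an interferon-stimulated response element, 2 copies of GAAA with any 2 bases between them, stood in 2.98%, and TTCNNNGAA, the form of a Stat site, in 7.02%. The sequences of the 2 PD-1 ligands, which lie side by side but differ in their calls, and of Nt5e, whose call was lower, are shown 5′ to 3′ with the E-box in capitals.
Cd274 (chr19:29367188-29367437, plus strand): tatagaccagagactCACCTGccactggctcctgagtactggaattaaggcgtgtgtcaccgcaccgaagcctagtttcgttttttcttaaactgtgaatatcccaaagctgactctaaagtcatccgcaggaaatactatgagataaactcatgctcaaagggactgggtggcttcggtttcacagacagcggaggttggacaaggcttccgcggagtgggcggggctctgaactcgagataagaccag
Pdcd1lg2 (chr19:29410669-29410918, plus strand): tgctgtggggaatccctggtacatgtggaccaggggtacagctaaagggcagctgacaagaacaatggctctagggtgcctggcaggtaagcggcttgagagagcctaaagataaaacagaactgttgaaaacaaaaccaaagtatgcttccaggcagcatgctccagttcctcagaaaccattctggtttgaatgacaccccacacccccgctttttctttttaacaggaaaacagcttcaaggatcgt
Nt5e (chr9:88327359-88327608, plus strand): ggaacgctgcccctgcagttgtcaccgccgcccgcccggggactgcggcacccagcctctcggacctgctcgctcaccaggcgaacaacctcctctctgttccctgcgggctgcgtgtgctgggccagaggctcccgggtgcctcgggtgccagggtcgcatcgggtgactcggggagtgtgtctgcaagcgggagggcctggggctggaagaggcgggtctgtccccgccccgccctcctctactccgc
Of the 7 promoters 1, that of Cd274, held CACCTG, at 235 bases before the start. The response element core was met in 1, that of Lgals9, in its reverse complement 55 bases before the start, and TTCNNNGAA in 0. These matches describe the letters of the windows, and binding was not measured. The Cd274 window lies inside the annotated range of the gene, which has a longer transcript.

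Cd274 encodes PD-L1 and lies on chromosome 19 (29362107 to 29388095). Its single probe set, 1419714_at, gave 7.38, 7.59 and 6.75 on the Zeb1 arrays, against 4.98, 4.98 and 5.83 on the control arrays. The groups did not overlap, as in 55.4% of all tested probe sets. The 3 Zeb1 arrays reached their array's median and 0 of the control arrays did, so the probe set passed the filter through the Zeb1 group alone. The mean was 7.24 ± 0.43 in Zeb1 cells and 5.26 ± 0.49 in control cells (SD, n = 3 each), a rise of 1.98 on the log2 scale (SE 0.34, 95% interval 1.21 to 2.75, limma adjusted p = 0.00105), or 3.94-fold. With no filter on low values the 95% interval was 1.04 to 2.92 (limma adjusted p = 0.0189). The control signals lay above the floor but under the pooled median of 6.32, and with the floor raised to that median the rise was 0.92 (adjusted p = 0.0060). In these bulk cultures, more cells with the transcript and more transcript per cell cannot be told apart.

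Pdcd1lg2, on chromosome 19 (29410919 to 29472927), encodes PD-L2, the other ligand of PD-1. Its probe set 1450290_at gave 6.38, 7.07 and 6.58 on the Zeb1 arrays, against 6.31, 6.24 and 6.50 on the control arrays. These groups overlapped and sat close to the pooled median. The log2 change was 0.33 (SE 0.26, 95% interval -0.25 to 0.91, limma adjusted p = 0.334), so a rise of the size seen for Cd274 lies outside the interval. Taken within each array, Cd274 minus Pdcd1lg2 changed by 1.65 (0.56 ± 0.41 in Zeb1 cells and -1.09 ± 0.37 in control cells, SD, n = 3 each). The two-sided exact permutation p was 0.1, the smallest that 3 arrays against 3 allow, and 0.133 after Benjamini-Hochberg adjustment over the 4 such pairs computed.

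**Figure D2:**
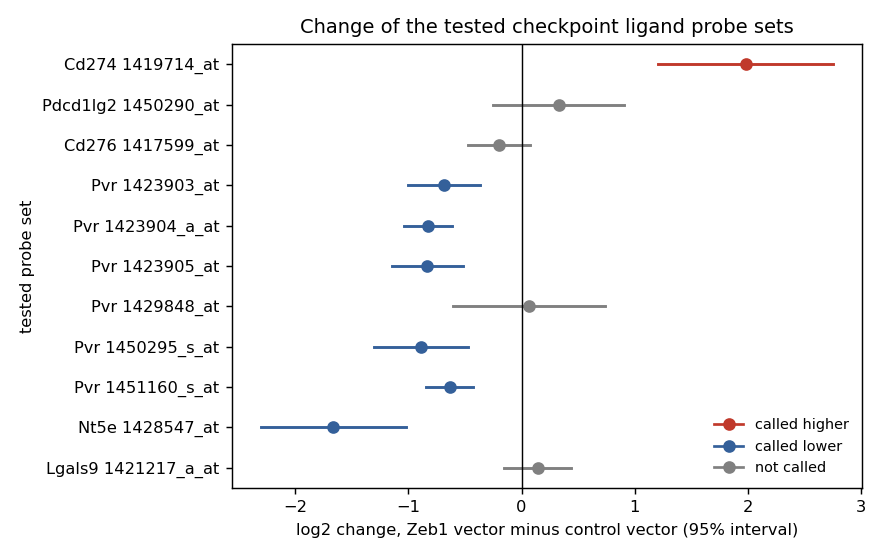
Log2 change, Zeb1 vector minus control vector, with its 95% interval from limma (horizontal axis) for the 11 tested probe sets (vertical axis); red marks a call higher, blue a call lower and grey no call. Cd274 lies to the right of 0 at 1.98, Nt5e to the left at -1.66, and 5 of 6 Pvr probe sets lie between -0.89 and -0.64.

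The genes beside the PD-1 ligands were read in the order of the RefSeq annotation, with 5 annotated genes taken on each side. Jak2, which carries interferon signals from the receptor, rose on both of its probe sets. On 1421066_at it gave 10.74, 10.70 and 10.77 on the Zeb1 arrays, against 9.87, 10.21 and 9.80 on the control arrays, a log2 change of 0.78 (SE 0.11, limma adjusted p = 0.000302). On 1421065_at the rise was 0.91. Plgrkt, a plasminogen receptor gene whose annotated range shares 5186 bases with that of Cd274, gave 11.12, 10.97 and 11.04 on the Zeb1 arrays, against 10.47, 10.27 and 10.35 on the control arrays. It rose by 0.68 (SE 0.08, limma adjusted p = 0.000103), with groups that did not overlap.

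On the other side of Pdcd1lg2, Ric1 fell by 0.43 on 1443966_at (SE 0.13, limma adjusted p = 0.0183) and had a change of -0.21 on its other probe set, which was not called. Ermp1 had changes of -0.08 and -0.02 on its 2 tested probe sets, neither called. Insl6, Rln1, A930007I19Rik and Mlana had no tested probe set. The 2 tested genes on the Jak2 side of Cd274 were higher in Zeb1 cells, and beyond Pdcd1lg2 the 2 tested genes were lower or not called. Within arrays, Cd274 minus Plgrkt changed by 1.30 (two-sided exact permutation p = 0.1) and Cd274 minus Jak2 1421066_at by 1.20 (exact permutation p = 0.2). After adjustment over the 4 pairs these p-values were 0.133 and 0.2.

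**Figure D3:**
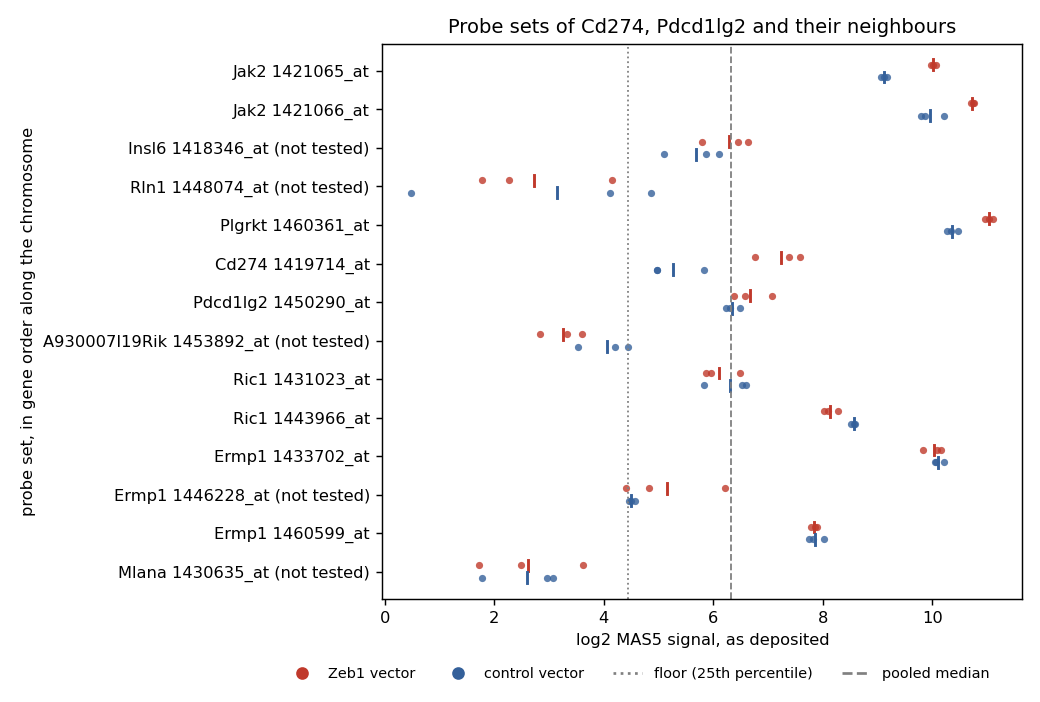
Log2 MAS5 signal (horizontal axis) on each array for the probe sets of Cd274, Pdcd1lg2 and their annotated neighbours, from top to bottom in gene order, with Zeb1 vector arrays in red (upper row of each pair), control vector arrays in blue, vertical ticks for group means, a dotted line for the floor and a dashed line for the pooled median. The red points of Jak2, Plgrkt and Cd274 lie to the right of the blue ones, whereas those of Pdcd1lg2 and Ermp1 1433702_at overlap them.

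The B7 ligands of CD28 and CTLA-4 were near background in both groups. Cd80, on chromosome 16, has 4 probe sets, and Cd86, also on chromosome 16, has 2. None of these 6 reached its array's median on any of the 6 arrays, so none was tested. The brightest, Cd86 1420404_at, gave 5.50, 5.94 and 6.04 on the Zeb1 arrays, against 5.33, 5.72 and 5.73 on the control arrays. These values overlapped, and with no filter on low values the log2 change was 0.24 (95% interval -0.29 to 0.76, limma adjusted p = 0.55). On Cd80 1454372_at the values were 5.80, 3.50 and 3.57 on the Zeb1 arrays, against 4.10, 3.47 and 3.86 on the control arrays, with 5 of the 6 under the floor. Cd80 1432826_a_at did not overlap between groups as deposited, but its values in Zeb1 cells, 3.05, 2.38 and 0, were under the floor and so have no order.

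Vtcn1, which encodes the B7 family inhibitor B7-H4, was below the floor on every array. Its probe set 1458070_at gave 4.09, 2.79 and 3.15 on the Zeb1 arrays, against 2.26, 3.69 and 4.07 on the control arrays. No change can be read from it. Over the 10 probe sets that were not tested, 35 of 60 values were under the floor, 3 reached their array's median, and the highest was 6.76.

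Cd276, on chromosome 9 (58524300 to 58555033), encodes B7-H3, a member of the B7 family whose receptor is not settled. Its probe set 1417599_at gave 9.49, 9.68 and 9.79 on the Zeb1 arrays, against 9.85, 10.03 and 9.66 on the control arrays. The signals were well above the pooled median and the groups overlapped. The log2 change was -0.20 (SE 0.12, 95% interval -0.47 to 0.08, limma adjusted p = 0.22), so an effect of Zeb1 on this signal larger than 1.39-fold downward lies outside the interval.

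Pvr, on chromosome 7 (19903578 to 19921143), encodes CD155, a nectin-related adhesion molecule that T cells and natural killer cells read through an activating receptor, CD226, and the inhibitory receptor TIGIT. It fell on 5 of its 6 tested probe sets. On 1423904_a_at the signal was 9.40, 9.50 and 9.30 on the Zeb1 arrays, against 10.16, 10.19 and 10.32 on the control arrays. Each Zeb1 array was lower than each control array. The mean was 9.40 ± 0.10 in Zeb1 cells and 10.22 ± 0.09 in control cells (SD, n = 3 each), a log2 change of -0.82 (SE 0.09, 95% interval -1.04 to -0.61, limma adjusted p = 7.6e-05), or 1.77-fold lower.

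The other 4 Pvr probe sets that fell had changes of -0.64 (1451160_s_at), -0.68 (1423903_at), -0.83 (1423905_at) and -0.89 (1450295_s_at), with limma adjusted p-values of 0.000362, 0.00319, 0.000839 and 0.00322. Groups did not overlap on any of the 5. These are not 5 separate measurements of the gene: 1423903_at, 1423904_a_at, 1423905_at and 1451160_s_at were annotated with the same source sequence. With no filter on low values, 1450295_s_at missed the threshold (adjusted p = 0.0515).

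The sixth tested Pvr probe set, 1429848_at, gave 6.42, 6.45 and 5.89 on the Zeb1 arrays, against 6.18, 5.84 and 6.54 on the control arrays. It lay around the pooled median, its groups overlapped, and its log2 change was 0.07 (95% interval -0.61 to 0.74, limma adjusted p = 0.881), a value whose sign turned under 5 of 13 processing alternatives. Within arrays, 1423904_a_at minus 1429848_at changed by -0.89 (two-sided exact permutation p = 0.1, adjusted over the 4 pairs 0.133). The last, 1445149_at, was not tested. It gave 4.88, 5.79 and 4.97 on the Zeb1 arrays and 2.83, 5.78 and 3.86 on the control arrays.

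Nt5e, on chromosome 9 (88327609 to 88372089), encodes CD73, the ectoenzyme that turns AMP into adenosine. Its probe set 1428547_at gave 6.59, 6.01 and 5.89 on the Zeb1 arrays, against 7.85, 8.27 and 7.36 on the control arrays. The groups did not overlap, and 1 of the 3 Zeb1 arrays reached its array's median. The mean was 6.16 ± 0.38 in Zeb1 cells and 7.83 ± 0.45 in control cells (SD, n = 3 each), a log2 change of -1.66 (SE 0.28, 95% interval -2.30 to -1.02, limma adjusted p = 0.000964), or 3.17-fold lower. With the Zeb1 signal near background, the floor at the pooled median gave a change of -1.41.

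The other 2 Nt5e probe sets missed the filter. On 1459023_at the values were 5.57, 5.50 and 5.19 on the Zeb1 arrays, against 6.76, 5.04 and 6.67 on the control arrays. Control replicate 2 was lower there than the 3 Zeb1 arrays, so the groups overlapped, and with no filter the change was -0.74 (95% interval -2.12 to 0.65, limma adjusted p = 0.454). On 1422974_at the no-filter change was -0.65 (adjusted p = 0.468), with 2 Zeb1 arrays and 1 control array at the floor.

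Lgals9, on chromosome 11 (78962979 to 78984924), encodes galectin-9. Its probe set 1421217_a_at gave 9.93, 10.04 and 10.15 on the Zeb1 arrays, against 10.04, 9.60 and 10.04 on the control arrays. The groups overlapped at signals well above the pooled median. The log2 change was 0.14 (SE 0.13, 95% interval -0.15 to 0.44, limma adjusted p = 0.411), and it was -0.0035 without control replicate 2, the lowest of the 6.

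**Figure D4:**
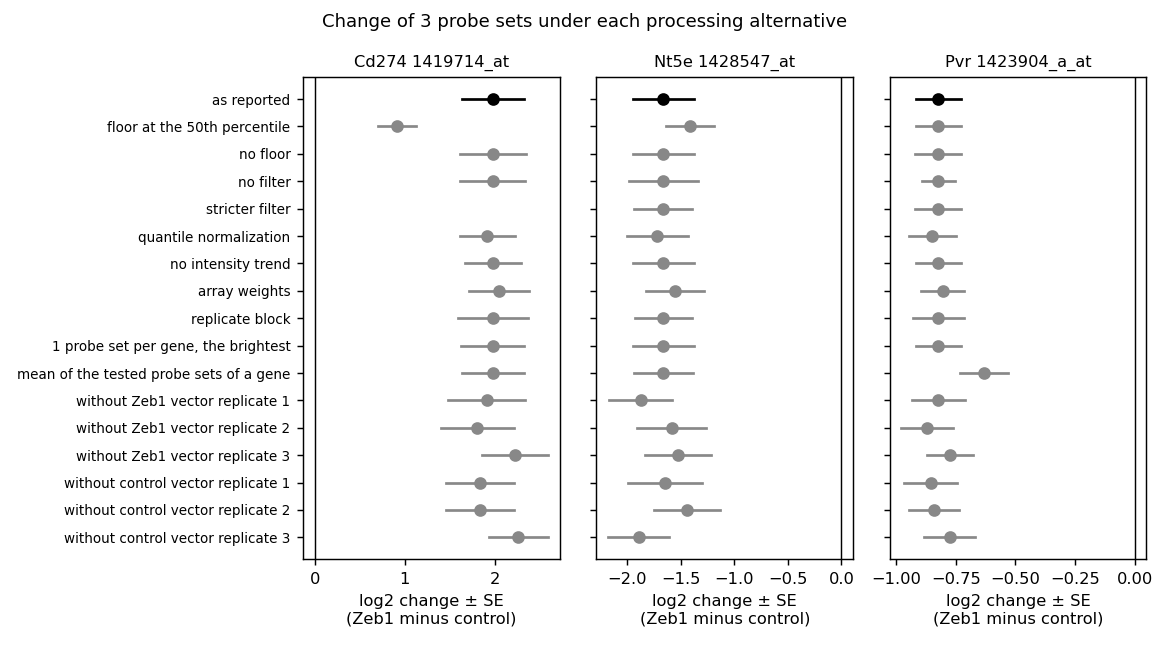
Log2 change, Zeb1 vector minus control vector, plus and minus its standard error (horizontal axes) for Cd274, Nt5e and 1 Pvr probe set as reported (black) and under each processing alternative (grey, vertical axis); the stricter filter left Cd274 untested. Cd274 lies between 0.92 and 2.26, Nt5e between -1.89 and -1.41 and Pvr 1423904_a_at between -0.87 and -0.63, where the value nearest to 0 is the mean over the tested Pvr probe sets.

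Genes that work with these ligands were read from lists, each gene by its brightest tested probe set. Over 11893 genes 25.8% were called higher and 23.5% lower by that measure, and the median log2 change was 0.01. Of 23 genes of PD-L1 induction and turnover, 10 rose and 5 fell, with a median of 0.14. The list mixes genes that act for and against PD-L1, so these counts have no single direction. Irf1, the interferon factor that acts on the PD-L1 gene, gave 10.31, 10.39 and 10.40 on the Zeb1 arrays, against 9.13, 9.40 and 9.12 on the control arrays, a rise of 1.15 (SE 0.10, limma adjusted p = 1.5e-05). Irf9, part of the complex that answers type I interferon, rose by 1.16 (SE 0.17, adjusted p = 0.000318).

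For the receptor chain Ifngr1 the change of -0.0022 (95% interval -0.21 to 0.20) was not called. Its partner Ifngr2 rose by 0.45 (limma adjusted p = 0.0478), a call lost with no filter, no intensity trend, quantile normalization, or without Zeb1 replicate 1 or 2 or control replicate 1 or 3. On 1423557_at Ifngr2 rose by 0.56 (limma adjusted p = 0.0317), a call also lost with no filter. Cmtm6, which keeps PD-L1 at the cell surface, rose by 0.30 (adjusted p = 0.0152), and by 0.37 on 1451114_at (adjusted p = 0.0230). Its relative Cmtm4 fell by 0.59. The ubiquitin ligase Stub1 fell by 0.47 and Myc fell by 0.25. Also called in this list were Spop, which rose by 0.48, Gsk3b, which rose by 0.28, and Cops5, which fell by 0.23. The other tested probe sets of Gsk3b were not called, and the call of Cops5 was lost with no filter. The call of Cmtm6 on its brightest probe set was lost without Zeb1 replicate 1, control replicate 1 or control replicate 3. That of Myc was lost with no filter, no intensity trend and without Zeb1 replicate 1 or 2 or control replicate 1 or 3. For the list as a whole, 7 rose and 3 fell with no filter and without control replicate 1, and 8 rose and 2 fell with no intensity trend.

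Around Nt5e, 10 genes of the adenosine pathway were tested, of which 2 rose and 3 fell, with a median of -0.05. Entpd1 (CD39) and Entpd3, which act upstream of CD73 by cutting extracellular ATP and ADP, were lower in Zeb1 cells. Entpd3 gave 6.21, 6.58 and 6.10 on the Zeb1 arrays, against 9.38, 9.49 and 9.31 on the control arrays, a log2 change of -3.09 (SE 0.17, limma adjusted p = 4.9e-07). Entpd1 gave 5.97, 7.02 and 6.29, against 7.39, 7.88 and 7.57 on the control arrays, a change of -1.19 (adjusted p = 0.0070), which missed the threshold with no filter (adjusted p = 0.0645). Panx1, a channel that lets ATP out of the cell, rose by 2.08 and the adenosine transporter Slc29a1 by 0.37, while Slc29a2 fell by 0.45, a call lost with no filter and without Zeb1 replicate 1 or 3 or control replicate 1 or 3. With no filter 2 genes of the pathway rose and 1 fell.

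Pvr belongs to the nectin family. In a list of nectins, nectin-like proteins and their scaffold Afdn, 5 of 7 tested genes fell and 1 rose, with a median of -1.13. With the tested probe sets of each gene averaged, 4 fell and 1 rose. Nectin2, which like Pvr is a ligand of CD226 and TIGIT, gave 10.54, 10.46 and 10.55 on the Zeb1 arrays, against 11.57, 11.71 and 11.67 on the control arrays. Its change was -1.13 (SE 0.07, limma adjusted p = 1.4e-06), and its other probe set fell by 0.84. Cadm4 fell by 2.61, Nectin4 fell by 2.12 (-1.50 with the floor at the pooled median), and Afdn, the scaffold that ties nectins to actin, fell by 1.39. Cadm1, a nectin-like ligand of the T cell protein CRTAM, rose by 0.63.

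Among galectins and the galectin-3 binding protein 4 of 6 tested genes rose and Lgals1 and Lgals12 were not called, with a median of 0.77. Lgals3bp, the secreted binding protein, gave 11.03, 11.11 and 11.56 on the Zeb1 arrays, against 6.03, 5.91 and 5.79 on the control arrays, a change of 5.32 (SE 0.16, limma adjusted p = 9.9e-09) or 4.91 with the floor at the pooled median. None of the Lgals3bp control signals reached the array median, so it passed the filter through the Zeb1 group alone. Lgals2 rose by 2.51, Lgals8 by 1.10 and Lgals3 by 0.44, and Lgals1 and Lgals12 each had a change of 0.07.

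Other immune-modulating genes, most but not all of them for surface ligands, went both ways. Of 18 tested 4 were higher and 7 lower, with a median of -0.25, or 4 higher and 4 lower of 13 under the stricter filter. Cd1d1, which presents lipids to NKT cells, rose by 3.95 (3.02 with the floor at the pooled median), the adhesion molecule Vcam1 by 2.77 and Cd24a by 1.34, and Cd47, the signal that restrains phagocytes, rose by 0.53. On its brightest probe set Cd1d1 passed the filter through the Zeb1 group alone, and some of the lower genes passed it through the control group alone. The other tested probe sets of Vcam1 rose by 2.11 and 4.09, and those of Cd47 had changes of 0.20 (not called), 0.69 and 1.04. The costimulatory ligand Tnfsf9 fell by 2.42, the butyrophilin Btn1a1 fell by 2.22 and the integrin ligand Icam1 fell by 2.15. Ceacam1, a ligand of TIM-3, had a change of -0.0016 on its brightest probe set, but its 3 other tested probe sets had changes of -1.34, -2.75 and -2.83, each called lower, and the mean over its probe sets was -1.73 (limma adjusted p = 9.9e-05).

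**Figure D5:**
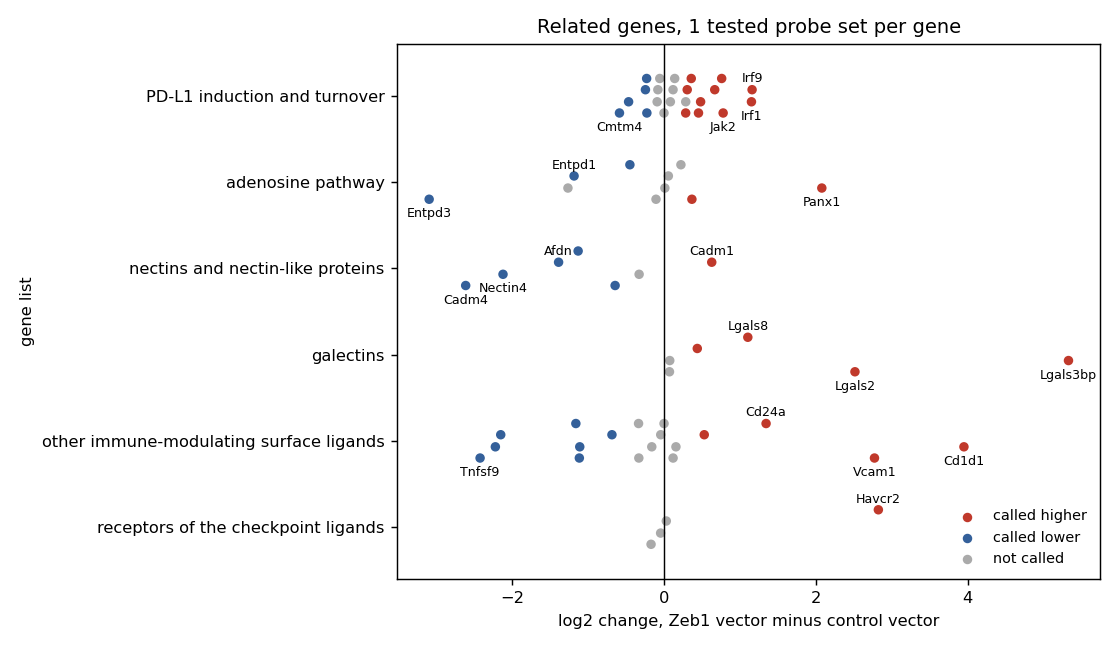
Log2 change, Zeb1 vector minus control vector (horizontal axis), of each tested gene in 6 related lists (vertical axis), 1 probe set per gene; red marks a call higher, blue a call lower and grey no call, and points are spread vertically for legibility. Called genes of the nectin list lie left of 0 apart from Cadm1, and called genes of the galectin list lie right of 0, with Lgals3bp at 5.32.

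A list of receptors for checkpoint ligands, some of them outside the 9 ligands, was read next. Of its 12 genes with a probe set 4 were tested. Havcr2, which encodes the galectin-9 receptor TIM-3, gave 7.21, 7.27 and 7.33 on the Zeb1 arrays, against 3.88, 3.60 and 2.98 on the control arrays, which were at the floor. Against control values set to the floor it was 7.07-fold higher in Zeb1 cells (95% interval 4.57 to 10.9, limma adjusted p = 2.9e-05). With the floor at the pooled median it was higher by 0.94 on the log2 scale, so the size depends on the floor. Havcr2 passed the filter through the Zeb1 group alone, and the stricter filter left it untested. Icos, the receptor of the ligand ICOSL, was not called on its brightest probe set, with a change of -0.05, but on 1421930_at it gave 7.48, 7.60 and 7.42 on the Zeb1 arrays, against 6.48, 5.73 and 4.94 on the control arrays. That probe set rose by 1.78 (SE 0.36, limma adjusted p = 0.0025), and the mean of the tested Icos probe sets rose by 0.87 (adjusted p = 0.0288). No tested probe set of Btla or Rgmb was called.

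Markers of the immune cells that normally carry Cd80, Cd86 and the receptors were read beside these values. Of 13 T and B cell marker genes with a probe set 9 did not reach the array median on any array, and of 18 myeloid and antigen-presenting cell genes 5 did not. The leukocyte antigen Ptprc and the T cell gene Cd3e did not reach the array median on any array, with highest signals of 5.43 and 6.15, and the same held for Itgam, H2-Aa and H2-Ab1. Others did on 6 arrays: Cd8a and Zap70 of the first list, with highest signals of 8.28 and 8.90, and Cd14, Cd68, Cd74, Csf1r, Laptm5 and Mrc1 of the second, with 12.26, 7.73, 7.42, 7.98, 8.68 and 11.19. Ms4a1 did on 5 arrays. Averaged over their probe sets, the T and B cell markers ranged over 5.24 to 5.55 on Zeb1 arrays and 5.28 to 5.39 on control arrays, and the myeloid and antigen-presenting cell markers over 5.86 to 6.10 on Zeb1 arrays and 5.95 to 6.01 on control arrays. Cd14 and Mrc1, from the myeloid list, rose by 2.29 and 1.92 to means of 12.15 and 11.06, and Cd8a rose by 0.45 on 1440164_x_at, while its other tested probe set was not called. Without Zeb1 replicate 1 or 2 the call of Cd8a was lost. Csf1r, also from the myeloid list, fell by 1.77 on 1419873_s_at (limma adjusted p = 0.00126), with groups that did not overlap. Its other tested probe sets, the brightest among them, were not called. Of the fibroblast and endothelial markers 2 of 14 were tested, Col1a2 with a change of -0.03 and Kdr with -0.24, and limma called neither. The part of other cells in the Havcr2 signal was not tested.

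The tested genes whose signal followed that of Cd274 most closely over the 6 arrays were Pafah1b1 (Pearson r = 0.998), Mrpl32 (r = 0.997) and Nme5 (r = 0.996). These values are a description: the points are 6 arrays in 2 groups, and the 3 genes were picked from all those tested.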

How the data were processed

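Total RNA of 6 cultures was measured on Affymetrix arrays. The authors deposited log2 signals, and the submitters' processing notes name MAS5 without a version. Detection calls were not used here. Symbols came from the platform annotation: 34945 of 45101 probe sets had 1 symbol, 932 had several, 9160 had none here and 64 were controls. Through the RefSeq gene table of GRCm38.p6, 34741 of the 34945 were found and 0 symbols changed.

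Values under the pooled 25th percentile (4.45), with the 2 missing values, were set to it. Probe sets reaching their array's median on at least 3 of 6 arrays were fitted with limma 3.58.1 in R 4.3.3 (lmFit, eBayes with intensity trend), adjusted by Benjamini-Hochberg over the 20594 tested, at a threshold of 0.05. The fit was tested on simulated data with 50 of 23450 probe sets changed at each size. It recovered 84% of log2 changes of 2, 54% of 1, 16% of 0.5 and 20% of -0.5. A far smaller share was changed there than was called here, so these rates do not carry over directly. With 3 arrays per group the SE of a log2 change had a median of 0.147. Members and gene lists were chosen with earlier results of these data known. Named were all member and Zeb1 probe sets, at most the 3 largest called rises and falls of each list, a fixed set (among them Jak2, Cmtm6, Nectin2 and Ceacam1), genes beside Cd274, and the 3 genes most like it. Lgals12, Icos, Btla, Rgmb, Col1a2, Kdr, Ptprc, Cd3e, Zap70, Ms4a1, Cd68, Cd74, Csf1r, Laptm5, Itgam, H2-Aa, H2-Ab1, Krt8, Krt18 and Nkx2-1 were named after their values were seen. So were Spop, Gsk3b and Cops5. Alternatives were another floor, filter, normalization, variance model, weighting, unit, block and left-out arrays.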

Additional observations from a re-analysis of the deposited data

How the results depend on the processing

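Of 163 values of tested checkpoint ligand probe sets under 16 alternatives, 156 kept their direction and their side of the threshold. The replicate numbers were not taken to pair the arrays, since deviations of arrays with the same number correlated at 0.017, 0.014 and -0.039, and with the replicate number as a block 7 probe sets were called, 1 higher and 6 lower, as without it, and 9377 over all tested. Counted per gene by the brightest probe set, 3 of 6 ligands were called, beside 6004 of all 11893 tested genes. By the mean of probe sets 3 ligands were called, beside 5859 of the 11893. These counts are lower than those of probe sets because the probe sets of a gene, such as those of Pvr, count there as 1. With 1 array left out, 7 to 8 ligand probe sets and 8337 to 9298 of all probe sets were called. The change of Pvr 1429848_at ranged over -0.11 to 0.25 with 1 array left out and turned to -2.9e-05 with the floor at the 50th percentile, -0.0079 under quantile normalization, -0.016 and -0.030 without Zeb1 replicate 1 and 2 and -0.11 without control replicate 2. That of Lgals9 ranged up to 0.22 and turned to -0.0035 without control replicate 2. The cause was not tested. Pvr 1450295_s_at missed the threshold with no filter (limma adjusted p = 0.0515). The stricter filter left Cd274, Pdcd1lg2 and Pvr 1429848_at untested, so 0 ligand probe sets were called higher under it. Signal over background limits Cd80, Cd86 and Vtcn1, for which no change could be read, and the size of the Cd274 change.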
